A study of Solanum lycopersicum with 4 samples.

Results

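TBG3, TBG5 and TBG6 belong to the tomato β-galactosidase family (TBG). They were picked by name, as the probe sets of the Affymetrix GeneChip Tomato Genome Array whose platform annotation gives one of these symbols. Each gene had 1 probe set, so that 3 of 10101 non-control probe sets stand for these 3 of 803 named genes, and no second probe set was there to check any of them. RNA was taken from the pericarp, the fleshy wall of the fruit, of tomato cv. Moneymaker. The AtJUB1-OX fruits carried a fusion of AtJUB1, the Arabidopsis NAC transcription factor JUNGBRUNNEN1, with GFP, driven by the constitutive CaMV 35S promoter and therefore not limited to the fruit, and they came from 1 transgenic line. They were set against wild-type (WT) fruits without the transgene. Fruits were sampled 7 days after breaker (B+7), breaker being the first visible colour change, and at mature green (MG), when the fruit has reached its size but is still green. There were 4 arrays, 1 for each genotype at each stage: AtJUB1-OX at B+7, WT at B+7, AtJUB1-OX at MG and WT at MG. How many fruits went into an array is not given in the sources used here.

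β-Galactosidases take galactose residues off the ends of sugar chains. In fruit cell walls their best known substrates are the galactan side chains of pectin, and walls of ripening tomato lose galactose while the fruit softens. The family is not a single ripening programme: TBG4 is the member known for rising with ripening, and tomato fruits with less TBG4 transcript stay firmer, while TBG6 is known from the growing fruit, and fruits with less TBG6 transcript crack more. The TBG5 protein, like the TBG4 protein, has been shown to cleave galactan in the test tube. The comparisons ask whether AtJUB1 overexpression goes with another level of these transcripts at each stage, and whether their change from green to ripe fruit is the same in both genotypes.

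All signals are deposited log2 values, so that a difference of 1 is a doubling, and all differences are given as AtJUB1-OX minus WT or as B+7 minus MG. With 1 array for each condition there is no replicate error, no test and no p-value; the number of arrays limits the precision, and each difference compares 2 arrays. A probe set is said to pass when its difference is at least 1.5-fold in either direction (0.58 on the log2 scale). The levels of different probe sets are not set against each other. The only measure of spread is that among probe sets of the same gene: over 35 genes with several probe sets brighter than the median, the pooled SD of the difference was 0.16 at MG, 0.10 at B+7, 0.26 for ripening in AtJUB1-OX and 0.24 for ripening in WT. Over all 82 genes with several probe sets, dim ones included, it was 0.26, 0.26, 0.74 and 0.61 in the same comparisons, where the ripening difference of TBG5 in AtJUB1-OX (-0.87) is little larger than this spread and that of TBG6 in WT (-0.51) is smaller. This spread covers probe error but not variation between fruits. TBG3, TBG5 and TBG6 all lay above that median, having mean signals brighter than 63.0%, 54.7% and 51.4% of the probe sets. In whole pericarp, fewer cells of a type and less RNA per cell cannot be told apart.

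The stage labels were checked on marker lists. All 5 photosynthesis genes of green fruit were lower at B+7 than at MG in both genotypes, and all 5 ripening genes of red pericarp were higher. The 2 MG arrays differed in these ripening genes. At MG, 4 of the 5 were lower in AtJUB1-OX than in WT, with differences of -5.29 for E8, -4.34 for EXP1, -0.83 for RIN and -0.47 for Psy1, and PG2 was higher (2.33). At B+7 the 5 differences lay between -0.08 and 0.49. All 5 photosynthesis genes were also lower in AtJUB1-OX than in WT at MG, from -0.61 (PsbQ) to -1.80 (CAB5). Each passed 1.5-fold, where 6.74% of all probe sets passed downward. At B+7 their differences lay between -0.85 (CAB6A) and 0.33 (psaD). RNA integrity was read from the gap by which the 3′ probe set of a control gene exceeds its 5′ probe set. A larger gap is read as less intact RNA. The gap also differed, being larger in AtJUB1-OX than in WT at MG by 0.13 (GAPDH) to 0.53 (EF1a). At B+7 the differences in the gap lay within -0.10 to 0.04. Along ripening the gap was smaller at B+7 than at MG for EF1a (-0.95 in AtJUB1-OX and -0.46 in WT) and ubiquitin (-0.55 in AtJUB1-OX and -0.25 in WT). The change was smaller for actin (-0.20 in AtJUB1-OX and 0.08 in WT) and GAPDH (-0.05 in AtJUB1-OX and 0.06 in WT), with the other sign in WT. Of the ribosomal RNA controls, 25S was 1.20 and 17S was 0.48 higher in AtJUB1-OX than in WT at B+7. Both were also higher at B+7 than at MG, 25S by 1.76 in AtJUB1-OX and 0.44 in WT, and 17S by 1.39 in AtJUB1-OX and 0.84 in WT. The part of these in the results below was not tested.

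TBG3 was the member that was low in green AtJUB1-OX fruits and higher in ripe fruits of both genotypes. Its signal was 11.54 in AtJUB1-OX at B+7 and 11.16 in WT at B+7, against 9.16 in AtJUB1-OX at MG and 10.33 in WT at MG. The AtJUB1-OX array at MG was thus the lowest of the 4, and both B+7 arrays were above both MG arrays. At MG, TBG3 was 2.25-fold lower in AtJUB1-OX than in WT (-1.17). At that stage 6.74% of all probe sets passed the 1.5-fold cut-off in this direction, 3.49% of those above the median signal, and 149 (1.48%) lay as low as TBG3 or lower. At B+7, TBG3 was 1.30-fold higher in AtJUB1-OX (0.38) and did not pass, as most probe sets did not (3.53% passed upward). The pattern of lower at MG with no pass at B+7 was shared with 532 probe sets (5.27%), TBG3 included.

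The step of TBG3 over ripening was larger in AtJUB1-OX than in WT. It was 5.22-fold higher at B+7 than at MG in AtJUB1-OX (2.38) and 1.78-fold higher in WT (0.83). Passing upward over ripening was common, with 19.1% of all probe sets in AtJUB1-OX and 13.9% in WT, and the steps of TBG3 were reached by 1.55% and 8.63% of the probe sets. The difference of the genotype differences, B+7 minus MG, was 1.56, a value that 104 probe sets (1.03%) equalled or exceeded, where 11.1% passed upward.

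TBG5 ran the other way, and it was the member whose ripening change had opposite signs in the 2 genotypes. Its signal was 9.65 in AtJUB1-OX at B+7 and 10.87 in WT at B+7, against 10.52 in AtJUB1-OX at MG and 9.0 in WT at MG. The highest array was ripe WT and the lowest green WT, with both AtJUB1-OX arrays in between. At MG, TBG5 was 2.87-fold higher in AtJUB1-OX than in WT (1.52), as high as or higher than this in 156 probe sets (1.54%), where 6.67% passed upward. At B+7 it was 2.32-fold lower in AtJUB1-OX (-1.22), as low or lower in 158 probe sets (1.56%), where 6.13% passed downward. Above the median signal, 4.95% passed upward at MG and 3.62% downward at B+7.

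Read along ripening, TBG5 was 1.83-fold lower at B+7 than at MG in AtJUB1-OX (-0.87) and 3.65-fold higher in WT (1.87). The first of these is a modest change for that comparison, since 16.8% of all probe sets passed downward and 12.1% lay as low as TBG5 or lower. With the arrays centred on the GAPDH 3′ control it was -0.56, which just misses the cut-off. The second was reached by 238 probe sets (2.36%). A pass downward in AtJUB1-OX together with a pass upward in WT was found in 52 of 10101 probe sets (0.515%) and in 11 of the 5050 above the median signal (0.218%). Only 3 of these 11 carried a gene name, among them TBG5 and NSY, a gene of carotenoid metabolism named here after its values were seen. The difference of the genotype differences was -2.74 for TBG5, the largest of the 3 genes, and 73 probe sets (0.723%) lay that low or lower.

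TBG6 was the member whose lowest value was in ripe AtJUB1-OX fruits, though TBG5 was also lower there than in ripe WT. Its signal was 8.18 in AtJUB1-OX at B+7 and 9.79 in WT at B+7, against 10.94 in AtJUB1-OX at MG and 10.30 in WT at MG. The AtJUB1-OX arrays held both the highest and the lowest value, and both B+7 arrays were below both MG arrays. At B+7, TBG6 was 3.06-fold lower in AtJUB1-OX than in WT (-1.61), and 85 probe sets (0.842%) lay as low or lower. At MG it was 1.56-fold higher in AtJUB1-OX (0.64), close to the cut-off and reached by 5.98% of the probe sets. With each array centred on the GAPDH 3′ control this MG difference was 0.50, which no longer passes.

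Over ripening, TBG6 was 6.79-fold lower at B+7 than at MG in AtJUB1-OX (-2.76) and 1.43-fold lower in WT (-0.51). In AtJUB1-OX, 251 probe sets (2.48%) lay as low or lower. In WT, where 14.2% of probe sets passed downward, TBG6 did not pass as deposited and did with the arrays centred on the spike controls (-0.75). The difference of the genotype differences was -2.25, equalled or exceeded downward by 117 probe sets (1.16%), where 11.2% passed downward.

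**Figure D1:**
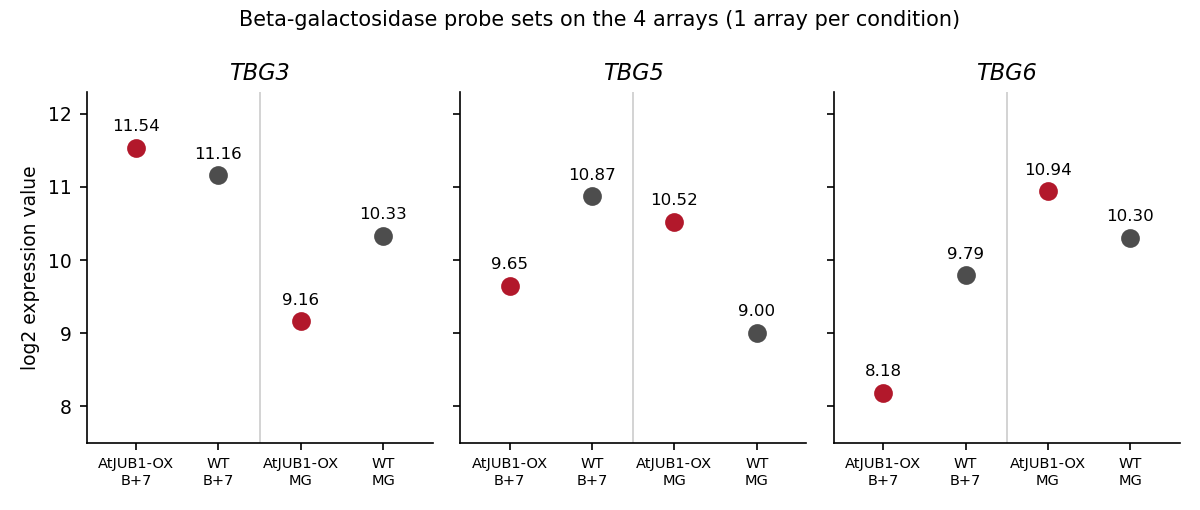
Deposited log2 signal of TBG3, TBG5 and TBG6 on the 4 arrays (y axis), with B+7 left of MG and AtJUB1-OX (red) left of WT (grey); each point is 1 array and there are no error bars. TBG3 had its lowest value in AtJUB1-OX at MG (9.16), TBG5 its highest in WT at B+7 (10.87), and TBG6 its lowest in AtJUB1-OX at B+7 (8.18).

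TBG5 and TBG6 shared a pattern that TBG3 did not have: higher in AtJUB1-OX at MG and lower in AtJUB1-OX at B+7, each by at least 1.5-fold. For TBG6 it rests on the MG difference of 0.64, which does not pass with GAPDH centring (0.50). The pattern was found in 107 of 10101 probe sets (1.06%), in 34 of the 5050 above the median signal (0.673%), and in 21 of the 909 probe sets that carry a gene name. Of the 512 named probe sets above the median signal, 7 had it, and TBG5 and TBG6 were among them. The others included ER5, an ethylene-responsive gene, SAM3, which encodes S-adenosylmethionine synthetase, and TLRP, a cell wall protein gene, all named here after their values were seen. The reverse pattern, lower at MG and higher at B+7, was found in 38 probe sets (0.376%). TBG3 had these signs, but its B+7 difference did not pass. The 2 genotype differences come from different arrays, so that no control array is shared between them.

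**Figure D2:**
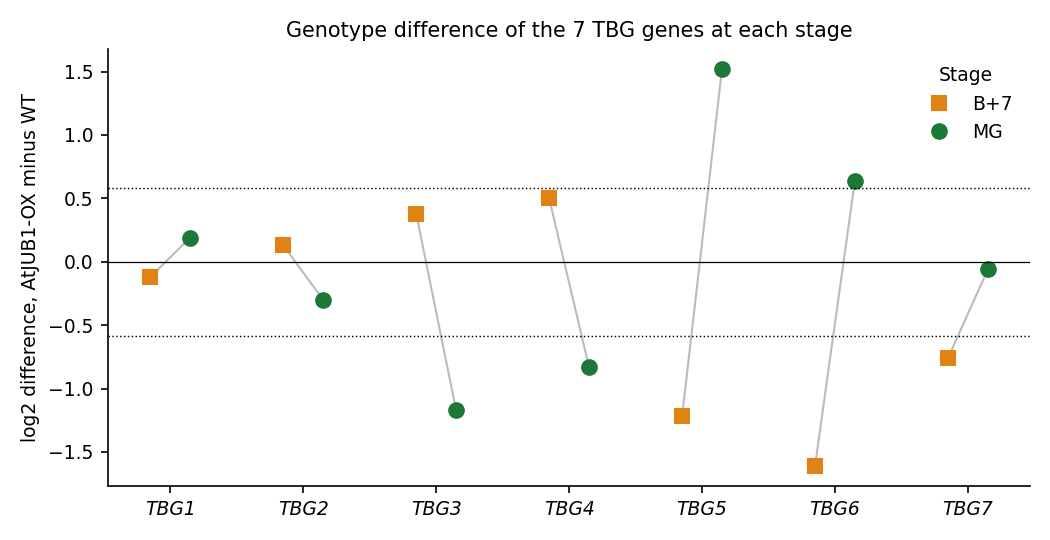
Difference AtJUB1-OX minus WT (log2) for each of the 7 TBG genes with a probe set, at B+7 (orange squares) and MG (green circles), a grey line joining the points of a gene; dotted lines mark 1.5-fold. TBG5 and TBG6 lie above the upper line at MG and below the lower line at B+7, TBG3 and TBG4 lie below the lower line at MG, and TBG1 and TBG2 stay between the lines at both stages.

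The 4 other TBG genes with a probe set were TBG1, TBG2, TBG4 and TBG7. TBG1 was nearly flat, with 11.28 in AtJUB1-OX at B+7, 11.40 in WT at B+7, 11.27 in AtJUB1-OX at MG and 11.08 in WT at MG, a range of 0.32 where TBG3, TBG5 and TBG6 spanned 2.38, 1.87 and 2.76. TBG2 spanned 0.70 and had genotype differences of -0.30 at MG and 0.13 at B+7. TBG4, the ripening-associated member, had 10.64 in AtJUB1-OX at B+7 and 10.14 in WT at B+7, against 6.99 in AtJUB1-OX at MG and 7.82 in WT at MG. Its signs were those of TBG3 in every comparison: lower in AtJUB1-OX at MG (-0.83), 0.50 at B+7, and 12.6-fold higher at B+7 than at MG in AtJUB1-OX, against 5.0-fold in WT. TBG2 also had the signs of TBG3 in every comparison, with smaller differences (over ripening 0.70 in AtJUB1-OX and 0.27 in WT). TBG7 had 6.55 in AtJUB1-OX at B+7 and 7.31 in WT at B+7, against 6.28 in AtJUB1-OX at MG and 6.34 in WT at MG, so that it was 1.69-fold lower in AtJUB1-OX at B+7 (-0.76). Mean signals of TBG2, TBG4 and TBG7 lay below the median of all probe sets, where probe sets of a gene spread more. Of the 7 genes, 2 passed upward and 2 downward at MG, none passed upward and 3 passed downward at B+7, and over ripening 3 passed upward and 2 downward in AtJUB1-OX, against 4 upward and none downward in WT. The shares of all probe sets that passed upward and downward were 6.67% and 6.74% at MG, 3.53% and 6.13% at B+7, 19.1% and 16.8% over ripening in AtJUB1-OX, and 13.9% and 14.2% over ripening in WT.

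**Figure D3:**
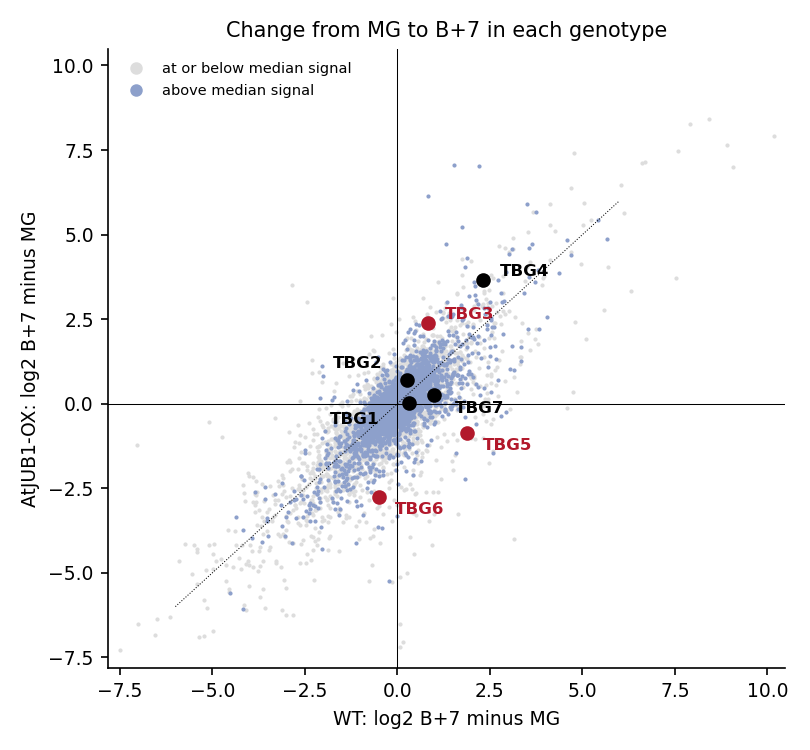
Change over ripening, B+7 minus MG (log2), in AtJUB1-OX (y axis) against WT (x axis) for the 10101 probe sets (grey at or below the median signal, blue above it), TBG3, TBG5 and TBG6 (red) and the other TBG genes (black). The dotted line marks equal change. TBG3 lies above the line (2.38 in AtJUB1-OX and 0.83 in WT), TBG6 below it (-2.76 and -0.51), and TBG5 has opposite signs on the axes (-0.87 and 1.87).

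Among 49 cell wall genes with a probe set, counted once each by the brightest, the 3 genes stood near the ends of the genotype comparisons. At MG, TBG3 was the 2nd lowest after the fruit-softening expansin EXP1 (-4.34), and TBG5 the 2nd highest after the ripening polygalacturonase PG2 (2.33), with MG signals of 6.32 in AtJUB1-OX and 3.98 in WT, far below the median probe set. TBG6 was the 6th highest. At B+7, TBG6 was the 5th lowest, TBG5 the 7th lowest and TBG3 the 7th highest, the last with a difference (0.38) that did not pass 1.5-fold. As deposited, TBG5 and TBG6 were the 2 genes of the 49 that passed upward at MG and downward at B+7, TBG6 not doing so with GAPDH centring, and TBG5 was the only one that passed downward over ripening in AtJUB1-OX and upward in WT, which it too did not do with GAPDH centring.

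The list without the TBG genes held 42 genes. At MG, 5 of them passed upward and 5 downward (23.8% in all, against 13.4% of all probe sets), with a median of 0.04 against -0.05. At B+7, 3 passed upward and 14 downward (40.5%, against 9.66%), with a median of -0.16 against 0.00. Of the 14 among these with a mean signal above the median, 3 passed upward and 1 downward at MG, and none passed upward and 3 downward at B+7. Of all probe sets above the median, 4.95% passed upward and 3.49% downward at MG, and 1.19% upward and 3.62% downward at B+7. The difference of the genotype differences passed downward in 16 of 42 and upward in 3, with a median of -0.38, against 11.2%, 11.1% and 0.05 for all probe sets. In this measure TBG5 was the 3rd lowest and TBG6 the 6th lowest of the 49, and TBG3 was the 3rd highest.

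By class, the 7 pectin genes held 1 gene that passed at each stage: PG2 upward at MG and PMEU1, a pectin methylesterase, downward at B+7 (-1.08, with 0.01 at MG). Of the 23 genes for glucan, xylan and mannan, 4 passed upward and 3 downward at MG and 3 upward and 7 downward at B+7. AGAL, which encodes α-galactosidase and so acts on galactose in the other linkage, was lower at B+7 by a difference of -2.97 at a mean signal below the median of all probe sets, with -0.20 at MG. XTH1, one of the enzymes that cut and rejoin xyloglucan, had -3.03 at B+7 and -0.03 at MG. At MG the largest of this class were XTH3 (1.11, with -0.16 at B+7) and LOC543916, given as XTH9 (1.06, with -0.05 at B+7). Of the 12 expansin genes, whose proteins loosen cell walls, 2 passed downward at MG (EXP1, and EXP12 with -0.67), and 6 passed downward at B+7, led by exp9 (-1.92) and EXPA10 (-1.85). No gene of that class passed upward at either stage. Most of these calls were on dim probe sets: of those that passed downward at B+7, 1 of the 6 expansin genes and 1 of the 7 genes for glucan, xylan and mannan had a mean signal above the median, and exp9 and EXPA10 had mean signals of 6.53 and 6.35. At B+7, 6.13% of all probe sets and 8.63% of those at or below the median passed downward, and at MG 6.74% of all probe sets.

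**Figure D4:**
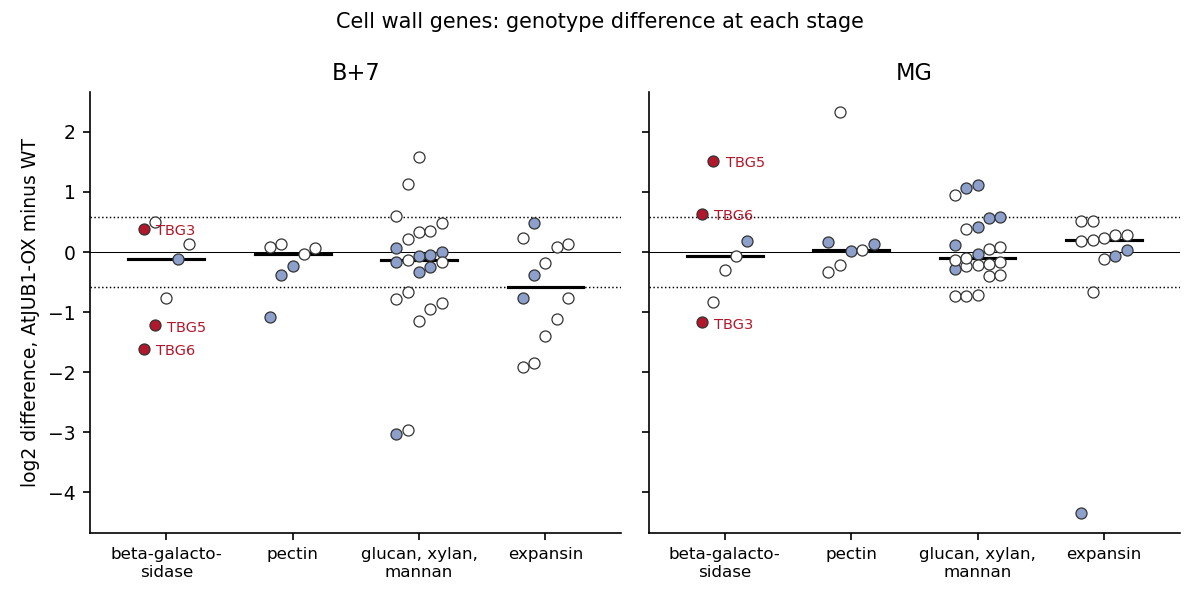
Difference AtJUB1-OX minus WT (log2) of the 49 cell wall genes by class, at B+7 (left panel) and MG (right panel); red points are TBG3, TBG5 and TBG6, blue points genes brighter than the median probe set, white points the others, black bars class medians, and dotted lines 1.5-fold. At B+7 the points reach further down than up, with TBG6 at -1.61 and TBG5 at -1.22, and at MG TBG5 (1.52) and TBG3 (-1.17) are near the opposite ends of the list.

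The named ripening genes fell into those that were lower in green AtJUB1-OX fruits, as TBG3 was, and those that were not. E8, an ethylene-responsive ripening gene, had 13.07 in AtJUB1-OX at B+7 and 13.06 in WT at B+7, against 6.95 in AtJUB1-OX at MG and 12.23 in WT at MG. RIN, a MADS-box ripening regulator, had 13.52 and 13.56 at B+7 in AtJUB1-OX and WT, and 10.56 and 11.39 at MG. The NAC regulator NOR had 11.95 in AtJUB1-OX and 11.43 in WT at B+7, and 9.35 in AtJUB1-OX and 9.96 in WT at MG. TDR4, the FRUITFULL-like MADS-box gene, had 13.67 and 13.69 at B+7 in AtJUB1-OX and WT, and 11.86 and 12.55 at MG, and Psy1, the fruit phytoene synthase gene, had 14.00 and 14.08 at B+7, and 11.17 and 11.64 at MG. In all 5 the AtJUB1-OX array at MG was the lowest of the 4, which also held for TBG2, TBG3, TBG4 and TBG7 and did not hold for TBG1, TBG5 and TBG6. For TBG7 and TBG2 this order rests on MG differences of -0.06 and -0.30, both under 1.5-fold. As low or lower lay 49.7% and 20.2% of the probe sets. The MG difference of Psy1 (-0.47) was also under 1.5-fold.

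ACS2, ETR3 and PG2 did not share that order. ACS2, an ACC synthase of ripening ethylene, had 13.11 in AtJUB1-OX and 12.77 in WT at B+7, and 8.25 in AtJUB1-OX and 7.10 in WT at MG. The ethylene receptor gene ETR3, listed under LOC544279, had 13.32 in AtJUB1-OX and 13.31 in WT at B+7, and 12.10 in AtJUB1-OX and 11.42 in WT at MG. PG2 had 14.23 in AtJUB1-OX and 14.16 in WT at B+7, with the MG values given above. TAGL1, another MADS-box gene, was nearly flat, between 12.76 in AtJUB1-OX at MG and 12.84 in WT at MG. At B+7 the AtJUB1-OX and WT arrays were thus within 0.08 of each other for E8, RIN, TDR4, Psy1, TAGL1, ETR3 and PG2. NOR and ACS2 were higher in AtJUB1-OX at that stage, by 0.51 and 0.34. TBG5 and TBG6 differed by -1.22 and -1.61.

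For each member, the genes of most similar profile were taken from 362 other named genes with a mean signal above the median, by the root mean square difference of the 4 log2 values after each gene's own mean was subtracted. With 4 arrays such likeness is a description of these arrays. For TBG3 the nearest were TDR4 (0.23), lin5 (0.23), which encodes a cell wall invertase, and LOXB (0.26), a fruit lipoxygenase, where the median over all compared genes was 0.93. As in TBG3, the lowest of the 4 values of lin5 was in AtJUB1-OX at MG, with 9.27 against 11.00 in WT. For TBG5 the nearest were loxD (0.28), a lipoxygenase of jasmonate synthesis, MPK3 (0.35), a mitogen-activated protein kinase, and XTH3 (0.40), against a median of 0.77.

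Like TBG5, its 3 nearest genes were lowest in green WT fruits. The signal of loxD was 11.78 in AtJUB1-OX and 12.32 in WT at B+7, and 12.09 in AtJUB1-OX and 10.94 in WT at MG. For MPK3 it was 10.89 in AtJUB1-OX and 11.22 in WT at B+7, and 11.04 in AtJUB1-OX and 9.93 in WT at MG. Both were lower in AtJUB1-OX than in WT at B+7 by less than TBG5 was. For TBG6 the nearest were GMP (0.31), which encodes GDP-mannose pyrophosphorylase, PMEU1 (0.33) and SAM3 (0.36), against a median of 1.04. PMEU1 had 11.09 in AtJUB1-OX and 12.17 in WT at B+7, and 12.95 in AtJUB1-OX and 12.94 in WT at MG. SAM3 had 10.21 in AtJUB1-OX and 10.91 in WT at B+7, and 12.33 in AtJUB1-OX and 11.51 in WT at MG. By the same measure the members were not near each other, with 1.24 between TBG3 and TBG5, 1.88 between TBG3 and TBG6, and 1.12 between TBG5 and TBG6. The last is close to the median over all genes compared with TBG6 (1.04), that for TBG5 being 0.77.

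**Figure D5:**
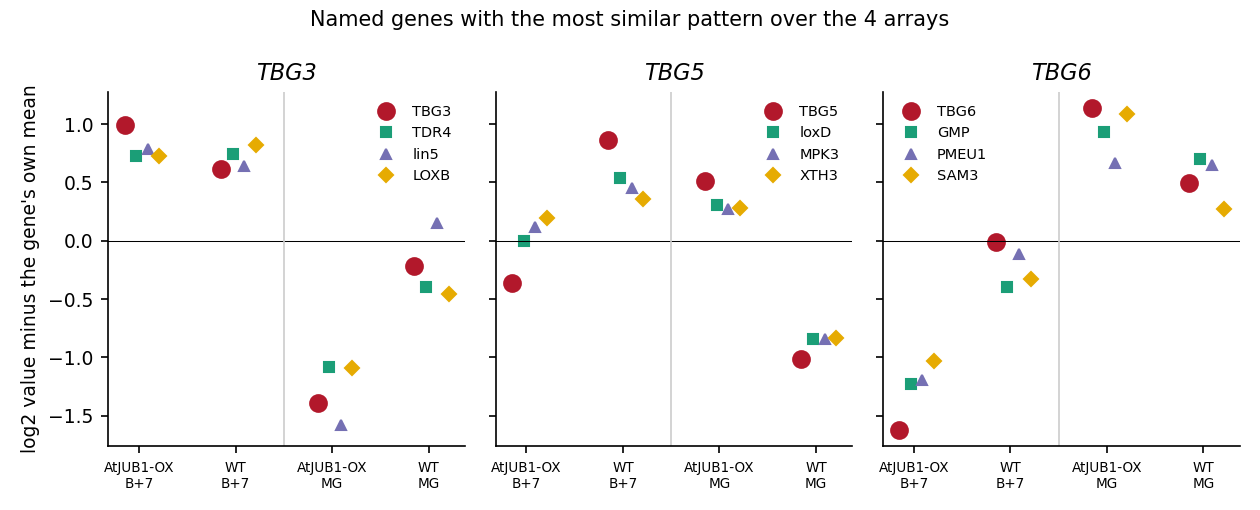
Log2 signal minus the gene's own mean over the 4 arrays, for TBG3, TBG5 and TBG6 (red circles), each with its 3 genes of nearest profile (squares, triangles and diamonds); arrays run along the x axis with B+7 left of MG and AtJUB1-OX left of WT. Each array holds 4 points a panel, 1 for each gene, which lie near each other, and the panels differ in where the lowest points fall: AtJUB1-OX at MG for TBG3, WT at MG for TBG5 and AtJUB1-OX at B+7 for TBG6.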

How the data were processed

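The authors hybridised pericarp RNA to the Affymetrix GeneChip Tomato Genome Array, 1 array for each genotype and stage. The deposited values are log2 signals per probe set, and GCRMA and RMA are both named in the submitters' processing notes, with no version and no order of steps. Of 10209 probe sets, 108 controls were left out, and 10101 were analysed as deposited, with no further normalization and no floor. Gene names came from the platform annotation, updated through a RefSeq gene table (909 probe sets with a gene, 803 genes, 9192 without a name). The brightest probe set stood for a gene. Differences were computed in Python 3.11.15 (pandas 2.3.3, numpy 2.4.6), and figures with matplotlib 3.10.9. Alternatives were quantile normalization and removal of a signal trend by loess (span 0.3, limma 3.58.1 in R 4.3.3), centring of the arrays on their median, on spike controls or, chosen after seeing the data, on the GAPDH 3′ probe set, a floor at the 25th percentile (7.34), the mean of a gene's probe sets, a 2-fold cut-off and probe sets above the median signal (9.70) only. Spike centring of the counts was also chosen after seeing the data. The scripts were tested on simulated data. With 1 array for each condition no test was run.

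The members and the gene lists were chosen with earlier results of these data known. The genes named are the members, the other TBG genes, at most 2 cell wall genes with the largest difference per class and comparison, a list of ripening regulators and markers, and for each member the 3 named genes of most similar profile. ACO1, on that list, was not paired with a probe set and was not analysed here, and seed contamination was checked on LEA14 alone, which had 12.93 in AtJUB1-OX and 13.05 in WT at B+7, and 13.44 in AtJUB1-OX and 13.03 in WT at MG.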

Additional observations from a re-analysis of the deposited data

Results flagged for a closer look

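TBG5 had genotype differences of opposite sign at the 2 stages, with -1.22 at B+7 and 1.52 at MG. Its ripening change had opposite signs in the 2 genotypes, with -0.87 in AtJUB1-OX and 1.87 in WT. These ripening differences are made from the same array values as the genotype differences and are not a separate observation. TBG6 had genotype differences of -1.61 at B+7 and 0.64 at MG. TBG3 had 0.38 at B+7 and -1.17 at MG, the B+7 value being under 1.5-fold. Each was picked out because the single array pairs moved in opposite directions, and none of these differences was tested, since there was 1 array for each condition.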

How the results depend on the processing

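No paired analysis was possible because each condition had 1 array, and no array could be left out. The floor and the mean over probe sets of a gene could not change a value of TBG3, TBG5 or TBG6, which have 1 probe set each and no signal under the floor. Under the 5 other scalings and corrections all 15 differences kept their sign. Of the 75 values, 72 stayed on their side of 1.5-fold and moved by less than the spread between probe sets over all 82 genes. The 3 that moved were TBG5 over ripening in AtJUB1-OX (-0.56 with GAPDH centring, which no longer passes 1.5-fold), TBG6 at MG (0.50 with GAPDH centring) and TBG6 over ripening in WT (-0.75 with spike centring). TBG3 over ripening in WT was 0.59 with spike centring, close to the cut-off. Further values move by more than the smaller spread of genes brighter than the median. An example is TBG3 over ripening in AtJUB1-OX, at 2.38 as deposited and 2.70 with GAPDH centring (spread 0.26). GAPDH centring moved the median of all probe sets by -0.14 at MG and by 0.31 and 0.15 over ripening in AtJUB1-OX and WT, and spike centring by -0.18 and -0.24 over ripening in AtJUB1-OX and WT. The genotype differences of TBG5 ranged from -1.22 to -1.18 at B+7 and from 1.38 to 1.60 at MG, and those of TBG6 at B+7 from -1.64 to -1.58. Counts of probe sets past 1.5-fold at MG, at B+7, over ripening in AtJUB1-OX and over ripening in WT were 1355, 976, 3632 and 2839. Above the median signal only, where fewer are counted, they were 426, 243, 1308 and 1061, and with a 2-fold cut-off 529, 362, 1848 and 1516. For the 49 cell wall genes the counts were 14, 20, 31 and 28, above the median signal only 7, 5, 12 and 12, and with a 2-fold cut-off 6 at MG, 12 at B+7 and 18 over ripening in WT. The share of higher among probe sets past 1.5-fold depended on scaling: at MG it was 49.7% and with the loess correction 62.6%, over ripening in AtJUB1-OX 53.2%, 38.6% with loess and 37.6% with spike centring, and over ripening in WT 49.6% and 29.9% with spike centring. The causes were not tested. The single probe set of each member gives no second measurement, and the number of arrays limits all values.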
